A study of Mus musculus with 2 samples.

Results

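The Iroquois homeobox genes of the mouse, Irx1 to Irx6, were examined in teratomas grown from E14 cells and from E14-Sox2TA/WT cells. E14 is a mouse embryonic stem cell (ESC) line, and E14-Sox2TA/WT cells are E14 cells in which the T258A change, threonine 258 to alanine, was placed in 1 allele of Sox2 by CRISPR-Cas9 editing. The edited cells were grown from sorted single cells, and the other allele of Sox2 was left as wild type. Cells were inoculated under the skin of BALB/c-nu mice, which lack T cells but supply their own vessels, blood and other immune cells, and the tumours were taken at day 14. The members were the rows of the expression table whose gene symbol is Irx1, Irx2, Irx3, Irx4, Irx5 or Irx6, 6 of 45777 genes. Each group had 1 RNA-seq library, so no difference below has a replicate check and no p-value is given. The 95% intervals given come from read counts, so they hold counting error alone and set these 2 libraries, not the genotypes, against each other.

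Iroquois proteins are transcription factors with a homeodomain of the TALE class, a DNA-binding fold that carries extra residues in a loop. In the embryo they divide fields of cells into territories, among them the progenitor zones of the neural tube, the hindbrain, the chambers and conduction system of the heart, and the limb. In mammals the genes lie in 2 clusters of 3, named IrxA and IrxB, which arose from a duplication, so that Irx1 and Irx3, Irx2 and Irx5, and Irx4 and Irx6 are counterparts across the clusters.

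In GRCm38, the build of the deposited table, IrxA spans 1311 kb of chromosome 13. Irx1 lies on the minus strand at chr13:71958232-71963723, Irx2 on the plus strand at chr13:72624430-72634196 and Irx4 on the plus strand at chr13:73259589-73269622. IrxB spans 882 kb of chromosome 8. Irx3 lies on the minus strand at chr8:91798511-91801654, Irx5 on the plus strand at chr8:92357796-92361456 and Irx6 on the plus strand at chr8:92674289-92680956. Members of a cluster were thus far apart, with gaps from 313 kb between Irx5 and Irx6 to 661 kb between Irx1 and Irx2.

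A window at the homeobox, the part of the coding sequence that encodes the homeodomain, is shown for the 6 members. The homeobox defines the family and is where reads of one gene could be taken for another. The window is the stretch of 63 residues with the most residues shared by all members in an alignment of the encoded proteins. The window was picked by this identity and not by the known limits of the homeodomain, so its ends may differ from those. It lies within a single exon in each gene. The sequences come from the GENCODE M21 transcripts on GRCm38, and run 5′ to 3′ on the coding strand. Counterparts stand next to each other, and capitals mark the 40 of 189 bases that are not the same in all members.
Irx1: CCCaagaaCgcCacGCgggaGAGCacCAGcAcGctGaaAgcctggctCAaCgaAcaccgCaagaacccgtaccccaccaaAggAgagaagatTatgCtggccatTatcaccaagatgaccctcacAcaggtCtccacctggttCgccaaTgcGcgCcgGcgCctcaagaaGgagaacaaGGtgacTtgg
Irx3: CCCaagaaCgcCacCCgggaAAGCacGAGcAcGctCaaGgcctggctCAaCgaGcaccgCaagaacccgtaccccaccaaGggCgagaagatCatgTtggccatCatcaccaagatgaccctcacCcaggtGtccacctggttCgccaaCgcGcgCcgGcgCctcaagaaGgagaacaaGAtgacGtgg
Irx2: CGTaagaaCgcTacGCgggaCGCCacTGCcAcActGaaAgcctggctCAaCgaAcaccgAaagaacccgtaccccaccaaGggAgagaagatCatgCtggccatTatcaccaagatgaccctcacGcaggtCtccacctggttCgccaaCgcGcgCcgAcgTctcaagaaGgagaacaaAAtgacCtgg
Irx5: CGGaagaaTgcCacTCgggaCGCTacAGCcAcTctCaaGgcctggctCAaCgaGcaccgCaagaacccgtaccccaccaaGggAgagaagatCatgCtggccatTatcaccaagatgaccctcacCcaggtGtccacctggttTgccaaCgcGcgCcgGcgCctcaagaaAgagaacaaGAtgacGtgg
Irx4: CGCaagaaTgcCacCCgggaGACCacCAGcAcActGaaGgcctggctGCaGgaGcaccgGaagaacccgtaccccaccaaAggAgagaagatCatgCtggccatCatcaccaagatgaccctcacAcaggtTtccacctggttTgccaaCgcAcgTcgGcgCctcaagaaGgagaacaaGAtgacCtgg
Irx6: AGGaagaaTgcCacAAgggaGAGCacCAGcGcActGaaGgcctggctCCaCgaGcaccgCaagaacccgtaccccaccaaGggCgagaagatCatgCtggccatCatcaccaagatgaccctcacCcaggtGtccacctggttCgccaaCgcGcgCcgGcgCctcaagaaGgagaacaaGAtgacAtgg

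Of the 63 residues of this window, which was picked for identity, 56 were the same in all members. Of the 40 variable bases, 29 were the last of a codon. Irx2 and Irx5 had the same residues throughout the window, and Irx1 and Irx3 were 98.4% identical there. Over the aligned proteins, the counterparts were the most alike, with 55.6% of residues identical for Irx2 and Irx5, 50.7% for Irx1 and Irx3, and 45.1% for Irx4 and Irx6. The other 12 pairs ranged from 33.9% to 39.8%. Only 3 of the 15 pairs of transcripts shared an identical stretch of 50 nt. The longest were 88 nt between Irx3 and Irx6, 65 nt between Irx2 and Irx5, and 50 nt between Irx3 and Irx5. Reads from these stretches could be assigned to either gene, and the length of the reads is not given in the sources used here.

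Gene counts summed to 50529171 reads for E14 and 49030281 for E14-Sox2TA/WT. TPM is a measure of transcript abundance that divides reads by transcript length and brings every library to the same sum. Over the 11578 genes whose TPM reached 10 in either library, the median log2 ratio of E14-Sox2TA/WT over E14 was -0.19 with TPM and 0.01 with FPKM, which divides by transcript length too but scales by library size and not to a fixed sum, so ratios of TPM stand 0.20 lower on the log2 scale than ratios of FPKM. Sox2, the edited gene, had a TPM of 246 and 130, and the table does not separate its alleles. Of the 10 lists of tissue markers, some differed in summed TPM between the libraries and others little. The summed TPM was 2421 and 343 for 6 neuron markers, 2937 and 914 for 6 neural progenitor markers, and 60.4 and 1649 for 4 markers of pluripotent cells. It was 37.7 and 257 for gut and visceral endoderm, 193 and 372 for squamous epithelium, and 630 and 1190 for macrophages. Skeletal muscle had 126 and 61.5 and cardiomyocytes had 107 and 48.6. Most of the cardiomyocyte sum was Actc1, at 94.7 and 31.6. Of the 4 cardiomyocyte markers with a TPM of at least 1, 2 were higher and 2 lower in the E14-Sox2TA/WT library. Myl7, for example, was higher, at 0.771 and 6.14. Chondrocytes, at 117 and 107, and endothelium, at 58.9 and 63.5, were the closest to equal. The chondrocyte sum joined genes that went opposite ways, so it does not show that cartilage transcripts were unchanged. Of the 4 chondrocyte markers with a TPM of at least 1, 2 were higher and 2 lower in the E14-Sox2TA/WT library. Sox9 was lower, at 44.1 and 16.9, whereas Col2a1, at 58.0 and 74.8, and Acan, at 0.252 and 1.01, were higher. Among the neuron and neural progenitor markers, all 12 had a lower TPM in the E14-Sox2TA/WT library, the neuronal tubulin gene Tubb3 for example at 1722 and 170, and none was at 0 reads. In bulk tissue, fewer cells of a type and less RNA per cell cannot be told apart, and the part of these markers in the results below was not tested.

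In the IrxA cluster, Irx1 was the member with the clearest difference. Irx1, a gene of limb joints and the developing kidney among other sites, had 854 reads and a TPM of 17.2 (counting interval 16.1 to 18.4) in the E14 library. It had 399 reads and a TPM of 7.20 (6.51 to 7.94) in the E14-Sox2TA/WT library. The intervals did not overlap, and Irx1 was 2.39-fold lower (2.12 to 2.70) in the E14-Sox2TA/WT library. It was thus the highest of the family in the E14 library and only the fourth in the other. The ratio was 0.480 with FPKM, and it stayed under 0.5 with library totals, TMM and median-of-ratios scaling.

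Irx2, a gene of the developing cerebellum and heart, had nearly as many reads in both libraries. Its reads numbered 872 for E14 and 851 for E14-Sox2TA/WT, with a TPM of 12.2 and 10.7. The ratio of TPM was 0.872 (0.793 to 0.960), but it was 1.001 with FPKM and 1.006 with reads scaled by library total, so the direction rests on the scaling. On the log2 scale the TPM ratio was -0.20, next to the median of -0.19 over all tested genes.

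Irx4, a gene of the heart's ventricles, was barely detected. Only 17 reads came from E14 and 24 from E14-Sox2TA/WT, a TPM of 0.224 and 0.296. The ratio was 1.32 with an interval from 0.681 to 2.62, so no difference was detectable at this depth.

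In the IrxB cluster, Irx5 had the lowest ratio. Irx5, which takes part in setting the electrical gradient across the wall of the heart and in retinal interneurons, gave 857 reads for E14 and 479 for E14-Sox2TA/WT. The TPM was 14.8 (13.8 to 15.8) and 7.41 (6.76 to 8.11), and the intervals did not overlap. Irx5 was 1.997-fold lower (1.78 to 2.24), just under the 2-fold threshold used below. Its ratio was 0.501 (0.447 to 0.561) with TPM, but 0.575 with FPKM and 0.576 with library totals, both outside that interval. How near it stands to 2-fold thus rests on the scaling.

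Irx3 marks progenitors of the neural tube that lie dorsal to those of motor neurons, and it also acts in the conduction system of the heart. It had 784 reads and a TPM of 13.9 (12.9 to 14.9) in the E14 library, and 677 reads and a TPM of 10.7 (9.92 to 11.6) in the E14-Sox2TA/WT library. It was 1.29-fold lower (1.17 to 1.44), less than Irx1 and Irx5 and more than the median of all tested genes. The ratio was 0.773 with TPM and 0.888 with FPKM, and the gene moved to the top of the family in the E14-Sox2TA/WT library.

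Irx6, a gene of bipolar cells in the retina, was also barely detected. Its reads numbered 37 for E14 and 44 for E14-Sox2TA/WT, with a TPM of 0.446 and 0.474. The ratio was 1.06 (0.672 to 1.70), and no difference was detectable at this depth.

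**Figure D1:**
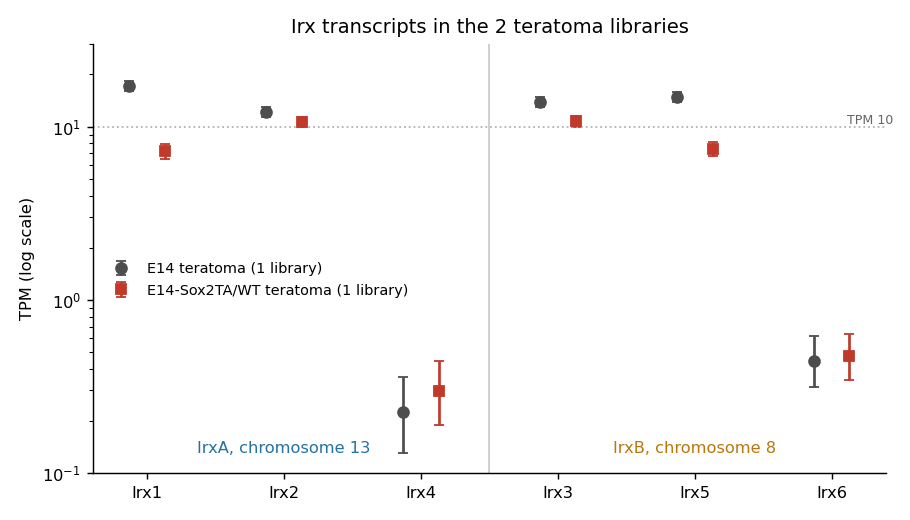
TPM of each Irx gene on a log axis in the E14 teratoma library (circles) and the E14-Sox2TA/WT teratoma library (squares), with bars for the 95% counting interval and 1 library per group. Irx1 and Irx5 drop from above to below a TPM of 10, Irx2 and Irx3 stay above 10 in both libraries, and Irx4 and Irx6 lie below 0.5.

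The order of the levels changed between the libraries, read per transcript length as TPM. In the E14 library it was Irx1, Irx5, Irx3, Irx2, Irx6 and Irx4. Irx1 was 1.16 times Irx5 (1.06 to 1.28) and Irx3 was 1.13 times Irx2 (1.03 to 1.25), whereas Irx5 and Irx3 did not differ beyond counting error. Irx6, with few reads, was 1.99 times Irx4 (1.09 to 3.76). In the E14-Sox2TA/WT library it was Irx3, Irx2, Irx5, Irx1, Irx6 and Irx4. There Irx2 was 1.44 times Irx5 (1.28 to 1.61), whereas Irx3 and Irx2, Irx5 and Irx1, and Irx6 and Irx4 did not differ beyond counting error. Irx1 and Irx5 together with Irx2 and Irx3 held nearly all transcripts of the family. Of the family's summed TPM, Irx1 held 29.3% in the E14 library and 19.6% in the other, Irx5 25.2% and 20.2%, Irx2 20.8% and 29.0%, and Irx3 23.6% and 29.2%.

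The study's rule for differential expression is a fold change above 2 among genes whose TPM is not under 10 in all samples. Of the 6 members, 4 passed the filter on TPM. Irx2 and Irx3 reached it in both libraries, and Irx1 and Irx5 in the E14 library only. Among these 4, 1 member, Irx1, passed the rule with lower expression and 0 with higher expression in the E14-Sox2TA/WT library. Over all 11578 genes tested, 18.7% passed with lower and 10.8% with higher expression, so 1 of 4 is near that background. The 4 members had a median log2 ratio of -0.68, against -0.19 over all genes tested. This median depends on the filter, which Irx1 and Irx5 passed only through the library where they were higher. The filter also left out Irx4 and Irx6, with log2 ratios of 0.40 and 0.09 from few reads, so the median does not describe the whole family. At a fold change above 1.5 Irx5 was added, and above 3 no member passed.

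The clusters were then compared with each other. Summed over its members, IrxA gave 1743 reads for E14 and 1274 for E14-Sox2TA/WT. With these reads brought to the TPM scale by 1 median factor over genes, IrxA was 1.53-fold lower (1.42 to 1.64). IrxB had 1678 and 1200 reads and was 1.56-fold lower (1.45 to 1.68). The ratio of IrxA to IrxB, which does not depend on the scaling between libraries, was 1.02 times as high in the E14-Sox2TA/WT library as in the E14 library, with an exact conditional interval from 0.920 to 1.14. The clusters' sums therefore did not differ in their change beyond counting error, and a difference of more than 1.14-fold in either direction lies outside the interval. With summed TPM in place of summed reads, IrxA was 1.63-fold and IrxB 1.56-fold lower. The balance of IrxA to IrxB was then 0.958, inside the interval above. Of the family's TPM, IrxA held 50.5% for E14 and 49.4% for E14-Sox2TA/WT. The balance by reads, 1.02, rested on which members were summed. It was 1.38 (1.22 to 1.55) without Irx1 and 0.679 (0.590 to 0.781) without Irx2.

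Within each cluster the members did not share 1 ratio. In IrxA, the ratio of Irx2 was 2.09 times that of Irx1 (1.79 to 2.44), and that of Irx4 was 3.02 times that of Irx1 (1.54 to 6.06). In IrxB, the ratio of Irx3 was 1.54 times that of Irx5 (1.32 to 1.80), and that of Irx6 was 2.13 times that of Irx5 (1.32 to 3.44). Of the 6 pairs inside a cluster, 4 had an interval that left out 1. For 2 of the 3 pairs of counterparts across the clusters the interval also left out 1. The ratio of Irx3 was 1.85 times that of Irx1 (1.57 to 2.17), and that of Irx2 was 1.75 times that of Irx5 (1.504 to 2.03). For the sparse pair of Irx4 and Irx6 it was 1.19 (0.521 to 2.74), which holds 1. The pairs closest in ratio among the 4 higher members were Irx2 with Irx3, whose ratios differed 1.13-fold (0.980 to 1.30), and Irx1 with Irx5, where that of Irx5 was 1.20 times that of Irx1 (1.01 to 1.41). Of the 9 pairs across clusters, 5 had an interval that left out 1.

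**Figure D2:**
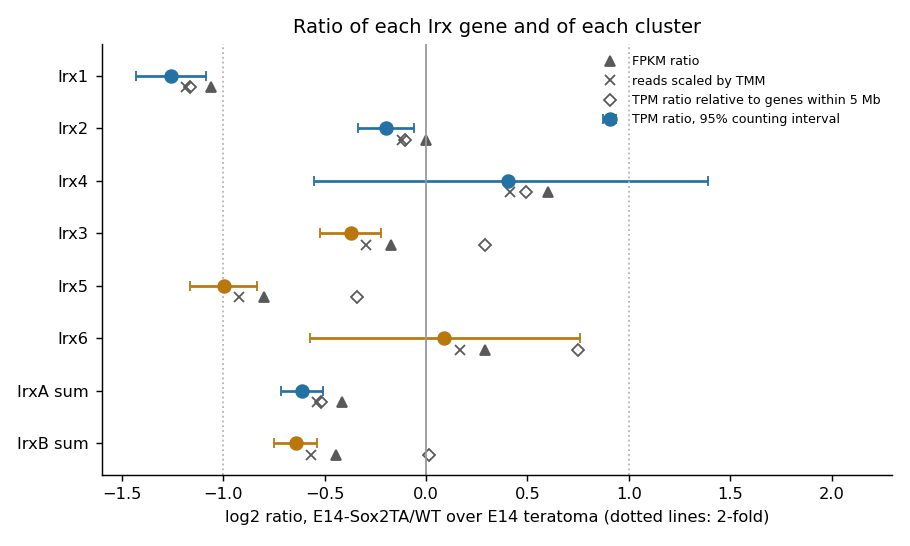
Log2 ratio of E14-Sox2TA/WT over E14 teratoma for each Irx gene and for the summed reads of each cluster (blue, IrxA; orange, IrxB). Circles are TPM for genes and reads brought to the TPM scale for sums, with bars for the 95% counting interval. Grey marks give other scalings: triangles for FPKM, crosses for reads scaled by TMM and diamonds for TPM relative to the genes within 5 Mb. By the circles, both clusters sum to nearly the same ratio, whereas Irx1 and Irx5 lie near or past the 2-fold line and Irx2 and Irx3 do not. By the diamonds, the sums part, with a ratio of 0.697 for IrxA and 1.01 for IrxB, and Irx5 has a ratio of 0.791.

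The chromosomal surroundings of the clusters differed. Among the 85 other genes with a TPM of at least 1 that start within 5 Mb of IrxA, the median log2 ratio of TPM + 1 was -0.06, against -0.06 over all 18558 such genes. Of 38 tested genes there, 5 passed the rule as lower and 7 as higher. Within 5 Mb of IrxB the median over 80 genes was -0.52, and 26 of 58 tested genes passed as lower and 2 as higher. Over all 11578 tested genes the shares were 18.7% lower and 10.8% higher. On the whole chromosome the median was 0.20 for chromosome 13 and -0.48 for chromosome 8. To set members against their surroundings, ratios of TPM with nothing added were used, over genes above 0 in both libraries. Their median log2 ratio within 5 Mb was -0.09 over 85 genes around IrxA and -0.66 over 76 genes around IrxB. Divided by these medians, the ratio was 0.697 for summed IrxA and 1.01 for summed IrxB, and the balance of IrxA to IrxB became 0.689. On the same relative scale, Irx5 had a ratio of 0.791 and Irx1 of 0.446, and Irx3 stood above its surroundings at 1.22. The part of the surroundings in the members' ratios was not tested.

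**Figure D3:**
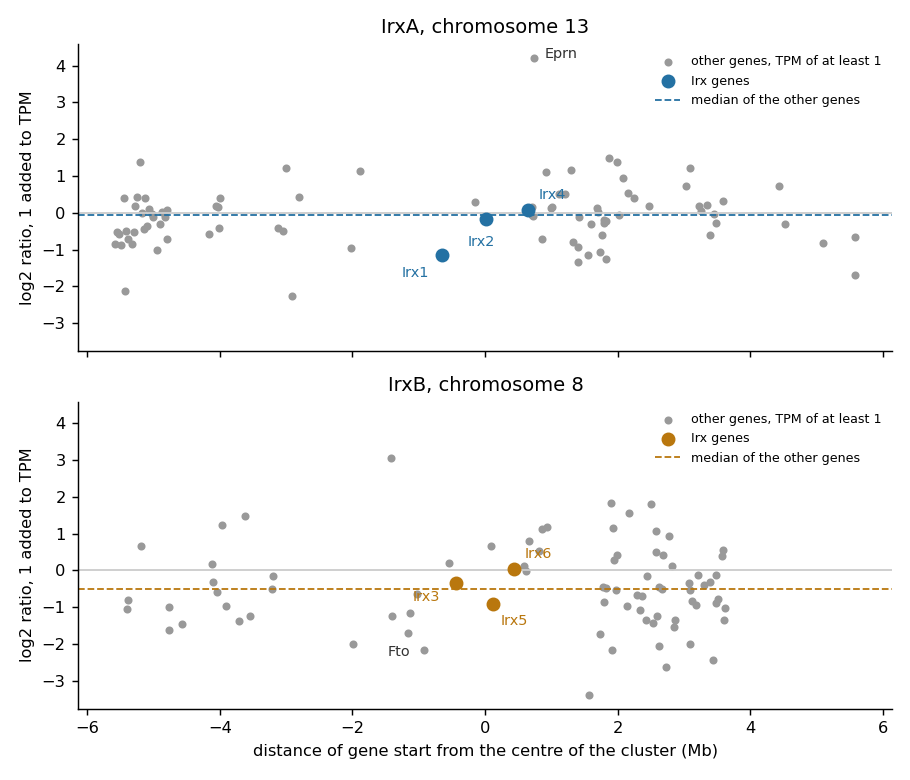
Log2 ratio of E14-Sox2TA/WT over E14 teratoma, with 1 added to each TPM, against the distance of each gene's start from the centre of IrxA (top) and IrxB (bottom), in Mb. Grey points are other genes with a TPM of at least 1, coloured points are Irx genes and the dashed line is the median of the other genes, at -0.06 around IrxA and -0.52 around IrxB.

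Closer to the clusters, the genes that start within 500 kb were read one by one. Around IrxA the 3 with the highest TPM, taking the higher of the libraries for each gene, were Ndufs6, a subunit of respiratory complex I, Mrpl36, a protein of the mitochondrial ribosome, and Clptm1l. Ndufs6 had a TPM of 206 and 232, Mrpl36 of 74.5 and 70.0, and Clptm1l of 59.9 and 66.0 in the E14 and E14-Sox2TA/WT libraries. Lpcat1, an enzyme of phospholipid synthesis named here after its values were seen, was above Clptm1l in the E14 library, with a TPM of 63.3 and 37.9, 1.67-fold lower (1.60 to 1.74). None of these 4 passed the rule, and of the 6 tested genes other than Irx members, 1 passed, as higher. That gene was the noncoding RNA Eprn, named after its values were seen, with 8 reads and a TPM of 0.246 in the E14 library against 774 reads and 22.05 in the other, 89.6-fold higher (45.2 to 208). Around IrxB the 3 were Fto, Gm3272 and Mmp2. Fto encodes an RNA demethylase, and its introns are known to hold distant regulatory elements of Irx3 and Irx5. Fto had 11696 reads and a TPM of 137 in the E14 library, against 2814 reads and 29.5 in the other, and was 4.65-fold lower (4.46 to 4.85), further from 1 than the ratio of any Irx member. The pseudogene Gm3272, whose reads may be shared with its source gene, had a TPM of 71.7 and 72.9, and Mmp2, a matrix protease, had 56.4 and 61.2.

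Each noncoding gene next to a member had more reads in the E14-Sox2TA/WT library, with few reads in all. Crnde lies on the minus strand and starts 1675 bp from the start of Irx5, so that the genes run away from each other. It had 96 and 181 reads and a TPM of 3.25 and 5.67, with a ratio of 1.74 (1.35 to 2.26). Gm20554 overlaps Irx2 on the opposite strand, and had 25 and 94 reads with a ratio of 3.39 (2.16 to 5.50). Irx3os, on the strand opposite to Irx3 and 1681 bp away, had 28 and 50 reads with a ratio of 1.56 and an interval from 0.963 to 2.57. Gm39223, also near Irx3, had 0 and 4 reads. None reached a TPM of 10. Over all genes, 1253 passed the 2-fold rule as higher and 2167 as lower with the filter on TPM, but 9156 and 6015 without it. A higher level at few reads was thus not particular to these noncoding genes. The sources used here do not state whether strand was used in counting, so reads of Gm20554 and of Irx2 where they overlap cannot be told apart.

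Promoter sequences were at hand in the RefSeq table of GRCm38.p6 for Irx2, Irx3 and Irx4. Windows of 250 bases before the start were read. For Irx3 the window directly precedes the gene span given above. For Irx2 and Irx4 it lies inside the gene span, at chr13:72628570-72628819 and chr13:73260247-73260496, so these are not the outermost starts. The windows held 19 CpG in Irx2, 13 in Irx3 and 22 in Irx4, against a median of 6 over 27025 promoters. Neither the Iroquois site ACANNTGT nor the Sox cores ACAATG and ACAAAG, searched on both strands, occurred in these 3 windows. They occurred in 6.29%, 11.0% and 16.5% of all promoters of this length.

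The other genes of the TALE class were read as a list of 12. Of these, 11 were tested, 4 passed the rule as lower and 1 as higher. For this list and the small lists below, the shares over all tested genes were 18.7% lower and 10.8% higher. On the log2 scale the median ratio of TPM + 1 was -0.52, against -0.63 over the 4 Irx genes with a TPM of at least 1 and -0.06 over all 18558 genes at that level. Pbx3, a partner of Hox and Meis proteins on DNA, had the highest TPM of the list in the E14 library and the ratio furthest from 1. It had a TPM of 128 and 37.5, and was 3.42-fold lower (3.28 to 3.57). The member that passed as higher was Tgif1, a corepressor, which falls outside the rule for naming genes, at 37.5 and 91.0.

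Irx3 shares the neural tube with factors that divide it from dorsal to ventral, and it and Olig2 are known to repress each other. In a list of 14 such factors, 8 were tested, 6 passed as lower and 0 as higher, with a median of -1.29. Olig2, which specifies motor neuron and oligodendrocyte progenitors, had a TPM of 50.2 and 9.38, 5.35-fold lower (4.90 to 5.85). Nkx2-2, of the zone ventral to it, had 36.3 and 6.11, and Gsx1, of dorsal interneuron progenitors, had 19.99 and 1.58. Foxa2, of the floor plate and also of endoderm, had 35.3 and 57.2. By the ratio of TPM + 1, 10 of the 14 factors were lower and 4 higher. The higher ones besides Foxa2, named for their direction, were Msx1 at 9.19 and 15.8, Pax3 at 5.38 and 8.34, and Msx3 at 2.02 and 4.35.

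Along the brain axis, Irx territories border those of Six3 and the Fezf genes in the forebrain. A list of factors along this axis held these genes, Otx2, Gbx2 and others. Of its 14 factors, 8 were tested, 2 passed as lower and 1 as higher, and the median was 0.35. Six3 had a TPM of 23.9 and 0.267, and Fezf1 of 11.9 and 0.508. Otx2 had 45.2 and 36.4, and Shh, whose source in the thalamus lies at the border of Six3 and Irx3, had 45.6 and 59.5. Six3 and the Fezf genes were thus far lower, but the list did not split into lower forebrain factors and higher others. By the ratio of TPM + 1, 9 of the 14 factors were higher and 5 lower. En2, named for being the 1 that passed as higher, had 4.99 and 12.98. Fgf8 was lower, at 33.79 and 17.98, and En1 was near equal, at 7.21 and 7.66, both named after their values were seen.

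Irx genes are also known in heart, limb and kidney. Of 14 ventricular and conduction genes, 5 were tested, 3 passed as lower and 1 as higher, with a median of 0.34 over 11. Kcnd2, a potassium channel that Irx5 represses in the heart and that neurons also use, had a TPM of 10.9 and 0.815, and Kcnd3, of the same family, had 15.3 and 2.78. Gata4, a factor of heart and endoderm, had 0.511 and 13.5, and the gap junction gene Gja1 had 124 and 166. Of 13 limb, cartilage and joint genes, 4 were tested, 2 passed as lower and 0 as higher, with a median of 0.65 over 12. Sox9, of cartilage and of neural progenitors, had 44.1 and 16.9, and the collagen gene Col2a1 had 58.0 and 74.8. Ihh, a signal of growing cartilage, had 1.14 and 7.53, and Col10a1, of mature cartilage, had 0.133 and 3.87, both under the filter. Of 10 nephron genes, 2 were tested and 1 passed as lower, with a median of 0.61 over 5. Cdh6 had 12.1 and 20.7, Lhx1, also a gene of interneurons, had 21.0 and 5.55, and Wt1 had 0.137 and 1.42.

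**Figure D4:**
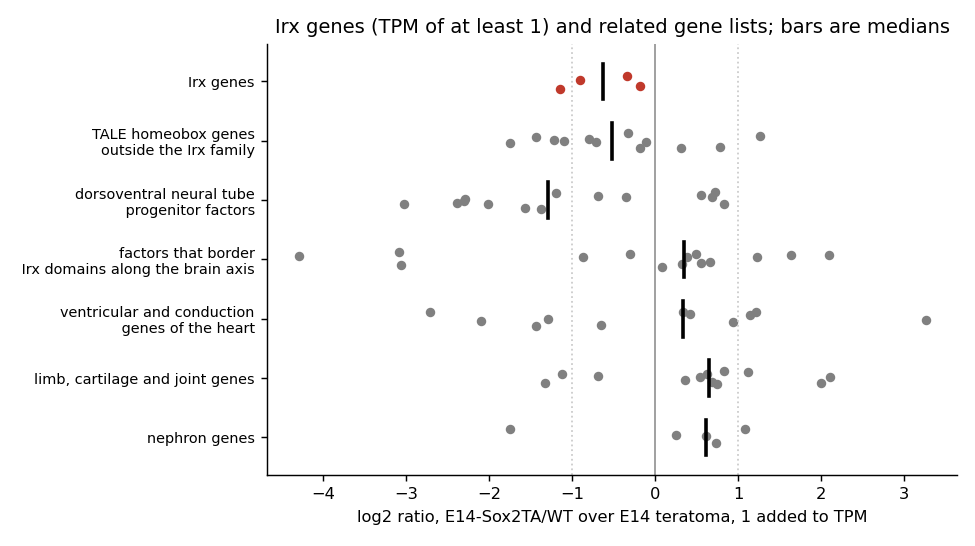
Log2 ratio of E14-Sox2TA/WT over E14 teratoma, with 1 added to each TPM, for Irx genes and for each gene of 6 related lists with a TPM of at least 1, where points are genes, bars are medians and dotted lines mark 2-fold. The 4 Irx genes shown lie between -1.15 and -0.18, and Irx4 and Irx6, below a TPM of 1, are left out. The neural tube list reaches -3.03 and the list of factors along the brain axis reaches -4.30.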

How the data were processed

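RNA-seq was available for 1 E14 teratoma and 1 E14-Sox2TA/WT teratoma library. In the deposited table, the authors gave read counts per gene, which are whole numbers without normalization, FPKM and TPM. Per the labels, the submitters' processing notes name bcl2fastq 2.20.0, Trimmomatic, HISAT2 2.1.0 and StringTie 2.1.3b, and the builds mm10 and hg19, without their roles. The labels call both samples teratomas, while the extraction text speaks of an ESC line. Whether a library came from 1 tumour or several of the 3 mice inoculated per group is not stated.

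Columns were assigned by the names in the sample descriptions. Positions came from RefSeq on GRCm38, which matched 45675 of 45777 genes. Members and gene lists were chosen with earlier results of these data known, and lists were assembled by hand. Ratios carry Clopper-Pearson intervals made from reads and placed on the TPM scale. Levels carry exact Poisson intervals, and ratios of clusters or pairs carry exact conditional intervals of the odds ratio. All of these intervals treat each counted read as an independent draw. Whether the deposited counts meet this was not tested, and if they do not, the intervals may be too narrow. With depths of 50529171 and 49030281 reads, counting error was small for members above a TPM of 10. No test between groups was run, since each has 1 library.

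Genes named were all members, noncoding genes within 20 kb of a member, the 3 highest within 500 kb of a cluster, and in each list the 2 highest and the 2 most different, with exceptions stated in the text. Some genes that this rule names are not reported here. Proteins were translated from GENCODE M21 transcripts and aligned with MAFFT 7.526. Alternatives covered scaling (FPKM, library total, edgeR TMM, median-of-ratios), pseudocount, TPM filter, fold threshold, surroundings, and transcript length, by the 1000 genes of most similar length. The scripts were tested on simulated data. Values were computed in Python 3.11.15 with scipy 1.17.1, and TMM factors with edgeR 4.0.16 in R 4.3.3.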

Additional observations from a re-analysis of the deposited data

How the results depend on the processing

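No paired analysis was possible because each group holds a single library, and for the same reason none could be left out. Alternatives gave 37 values for clusters and counts that stayed inside the counting interval, or 1.5 times the count, and 25 outside. For single members 40 stayed inside and 14 did not. Where a value moved, the cause was not tested unless the alternative's construction states it. Irx4 and Irx6, with 17 to 44 reads, are limited by depth. The difference between tumours was not measured.

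The ratio of summed IrxA, 0.655, was 0.751 with FPKM, 0.753 with library totals, 0.595 relative to its chromosome and 0.734 relative to genes of similar length. The ratio of summed IrxB, 0.640, was 0.735 with FPKM, 0.737 with library totals, 0.954 relative to its chromosome, 1.01 relative to genes within 5 Mb and 0.705 relative to genes of similar length. The balance of IrxA to IrxB, 1.02, was 0.624 relative to the chromosomes, 0.689 relative to genes within 5 Mb, 1.38 without Irx1, 0.679 without Irx2, 1.25 without Irx3 and 0.832 without Irx5.

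Of the members, 1 passed as lower at 2-fold, 2 at 1.5-fold and 0 at 3-fold. Over all genes, 1253 higher and 2167 lower became 3585 and 3508 when a TPM of 1 sufficed, 9156 and 6015 without a filter, 2109 and 3742 past 1.5-fold, and 663 and 1015 past 3-fold. With FPKM they were 1583 and 1655. With 0.1 added to TPM, the medians of the lists of neural tube and of limb genes were -1.68 and 0.95. With FPKM they were -0.31 for TALE genes and -0.89 for the neural tube list.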
